A study of Mus musculus with 4 samples.

Results

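The cadherins and protocadherins measured here are the genes whose platform symbol is Cdh or Pcdh followed by numbers or lower-case letters, taken only from probe sets annotated to a single gene. There were 56 such genes on 101 probe sets, out of 18193 genes with a probe set of their own, 21 of them cadherins and 35 protocadherins. Each gene was read from the probe set with the highest mean signal over the 4 arrays, and 29 of the 56 lay at or above the 40th percentile of all probe sets other than the array's controls, a mean signal of 42.5, and were tested. In 5 of these 29 the mean deposited signal of one group alone lay under the limit, for Cdh20, Cdh23, Pcdhb7 and Pcdhb22 that of dNeurog1-GFP cells and for Pcdh7 that of Atoh1-GFP cells, so that they were tested through the brighter group. The other 27 are described by their signals. Just inside that limit lay Cdh23 with a mean of 44.2 and just outside it Pcdhb8 with 42.2.

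RNA came from GFP-sorted cells of the mouse neural tube at E10.5 (embryonic day), dissected from forelimb to hindlimb level in embryos of mixed B6SJLF1 and ICR strains. The Atoh1-GFP group comes from line Atoh1BAC-GFP, whose bacterial artificial chromosome carries GFP and labels the population derived from Atoh1-expressing cells, the dorsal interneurons called dI1. The dNeurog1-GFP group comes from a line in which an enhancer of Neurog1 places GFP dorsally, labelling the interneurons called dI2. Both groups carry a GFP transgene and each has 2 arrays, replicates 1 and 2, described as biological replicates. The labels mention sorting into GFP-negative and GFP-positive cells and 2 types of sorter without saying which array came from which, and they do not give the number of embryos, so a GFP-positive origin is assumed for every array and p-values measure the spread between these 4 arrays only.

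Cadherins are membrane proteins whose extracellular repeats bind calcium and, in most cases, the same cadherin on the neighbouring cell. Classical cadherins hold adherens junctions together through catenins bound to their cytoplasmic tail, and in the neural tube they keep the neuroepithelium intact and sort neurons into groups. Protocadherins lack the catenin-binding tail. The delta protocadherins are single genes with restricted patterns in the embryonic nervous system, while the clustered protocadherins give neurons a combinatorial surface identity used in self-recognition.

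Of all members, Pcdh8 and Pcdh20 were the ones that passed a test with all 4 arrays. Pcdh8, a delta-2 protocadherin also called paraxial protocadherin or arcadlin, was lower in Atoh1-GFP cells, and Pcdh20 was higher. Both were called in the model that takes the replicate number as a block and not in the model without it. Their promoter windows, and that of Cdh20, a type II cadherin whose positive difference did not pass, are shown because proneural factors such as Atoh1 and Neurog1 bind the E-box, CANNTG. The windows run from 250 bases before to 50 bases after the annotated start, read 5′ to 3′ on the gene's strand (RefSeq, GRCm38.p6), with E-boxes in capitals.
Pcdh8 (chr14:79771263-79771562, minus strand): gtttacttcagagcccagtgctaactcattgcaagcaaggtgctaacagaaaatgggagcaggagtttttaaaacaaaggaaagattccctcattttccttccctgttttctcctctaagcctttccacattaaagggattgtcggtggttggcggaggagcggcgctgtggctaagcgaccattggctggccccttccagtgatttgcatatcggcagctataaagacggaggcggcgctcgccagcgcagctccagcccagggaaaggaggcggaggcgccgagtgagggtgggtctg
Pcdh20 (chr14:88471347-88471646, minus strand): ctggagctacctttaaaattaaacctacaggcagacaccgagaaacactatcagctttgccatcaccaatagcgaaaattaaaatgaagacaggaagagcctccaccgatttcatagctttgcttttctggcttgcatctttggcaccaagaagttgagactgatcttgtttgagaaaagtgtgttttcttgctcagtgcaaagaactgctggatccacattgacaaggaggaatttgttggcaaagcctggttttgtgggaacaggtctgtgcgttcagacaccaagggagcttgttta
Cdh20 (chr1:104768270-104768569, plus strand): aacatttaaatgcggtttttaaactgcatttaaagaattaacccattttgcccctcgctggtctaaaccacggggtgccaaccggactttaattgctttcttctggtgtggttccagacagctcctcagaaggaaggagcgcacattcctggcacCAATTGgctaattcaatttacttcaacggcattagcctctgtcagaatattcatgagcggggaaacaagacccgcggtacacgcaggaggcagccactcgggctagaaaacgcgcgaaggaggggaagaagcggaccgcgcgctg
The Cdh20 window held 1 E-box, CAATTG, beginning 95 bases before the start, and the Pcdh8 and Pcdh20 windows held 0. The motif reads the same on both strands as written. It was present in 72.3% of the 32851 windows of all genes and in 10 of the 17 windows found for 14 of the 29 tested members. A match or its absence describes these letters only.

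Each gene's signals below are MAS5 intensities after the arrays were multiplied to one trimmed mean of 500, because the deposited trimmed means were 250 on both replicate 1 arrays and 500 on both replicate 2 arrays. Median signals of replicates 1 and 2 were then 138 and 76 in Atoh1-GFP cells, against 115 and 75.4 in dNeurog1-GFP cells. As deposited they were 69.1 and 76, against 57.4 and 75.4. Whether groups overlap was read at this scaling only. Differences are on the log2(signal + 32) scale, Atoh1-GFP minus dNeurog1-GFP, which understates changes of dim genes, and are also given within each replicate number. Over all 12751 genes tested, limma called 21 genes (0.165%) at an adjusted p under 0.05 without a block, 11 higher and 10 lower in Atoh1-GFP cells. The split was 1 and 12 with signals as deposited and 17 and 9 after quantile normalization. With the replicate number as a block it called 843 (6.61%), 360 higher (2.82%) and 483 lower (3.79%). The dI1 markers Atoh1, Lhx2, Lhx9, Barhl1 and Barhl2 summed to signals of 38822 and 37412 in Atoh1-GFP cells, against 3815 and 4683 in dNeurog1-GFP cells. The 6 dI2 markers Neurog1, Neurog2, Lhx1, Lhx5, Foxd3 and Foxp2 summed to 1946 and 1922 in Atoh1-GFP cells, against 8509 and 10097 in dNeurog1-GFP cells. Of these 6, 5 were lower in Atoh1-GFP cells, 4 of them called with the block and 3 without it. Foxd3 was not called. Foxp2 overlapped, with 1040 and 1131 in Atoh1-GFP cells, against 848 and 1156 in dNeurog1-GFP cells. Blood markers, 6 of 7 on the array and 0 at 0, summed to 30597 and 31687 in Atoh1-GFP cells, against 7763 and 22888 in dNeurog1-GFP cells, and their part in the results was not tested.

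Among the 29 tested members, 0 passed without the block and 2 passed with it, 1 higher and 1 lower in Atoh1-GFP cells. That is 6.9% of them, beside 6.61% of all genes. At an unadjusted p under 0.05 without the block, limma counted the same number of members, 2 of 29, beside 8.65% of all genes. The signals of the groups did not overlap for 14 members, 8 higher and 6 lower in Atoh1-GFP cells, which is 48.3% beside 35.1% of all genes (16.1% higher and 19% lower). Among the 8 higher were Cdh20, Pcdhb7 and Pcdhb22, which were tested through their Atoh1-GFP arrays. The median difference of the members was 0.18, with 0.39 within replicate 1 and -0.09 within replicate 2, beside 0, 0.01 and -0.01 for all genes tested. Without the dNeurog1-GFP replicate 1 array it was 0.03, and without the Atoh1-GFP replicate 1 array 0.10. Only Pcdh8 differed by at least 1 log2 unit within both replicate numbers in the same direction, where 1.11% of all genes were that much higher and 1.18% that much lower.

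**Figure D1:**
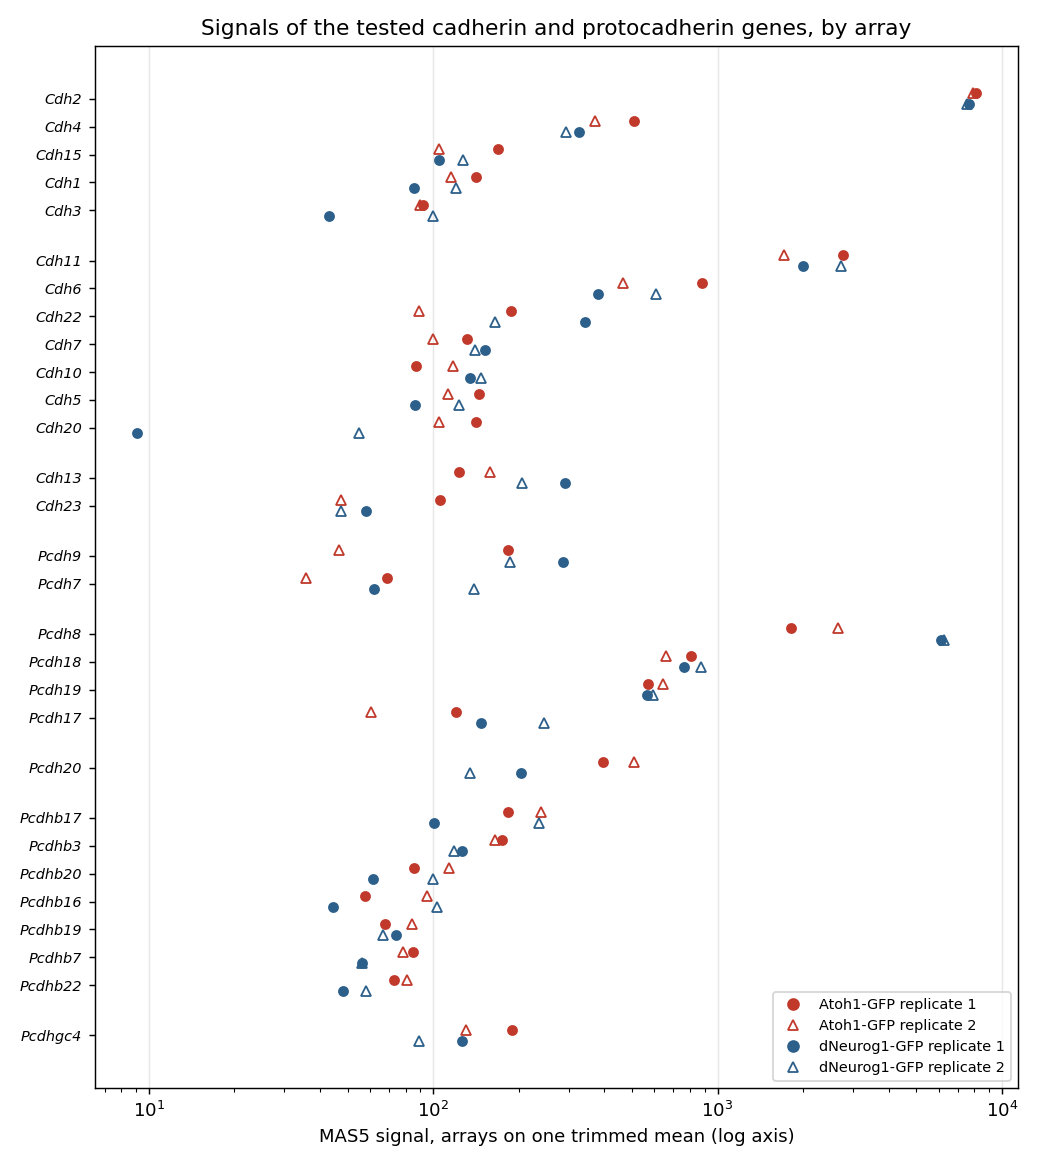
MAS5 signal of each tested member on each array (log axis, arrays on one trimmed mean), with Atoh1-GFP arrays in red and dNeurog1-GFP arrays in blue, circles for replicate 1 and triangles for replicate 2, grouped by subfamily. Pcdh8 lies at 1811 and 2649 in Atoh1-GFP cells, against 6121 and 6280 in dNeurog1-GFP cells, while the 4 Cdh2 points nearly coincide. Signals of different genes come from different probes and are not compared.

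Of the delta-2 protocadherins, whose tails recruit actin regulators, 4 of 5 were tested and 1 passed with the block. Pcdh8 read 1811 and 2649 in Atoh1-GFP cells, against 6121 and 6280 in dNeurog1-GFP cells. Both Atoh1-GFP arrays thus lay below both dNeurog1-GFP arrays. The log2 difference was -1.49, made up of -1.74 for the replicate 1 pair and -1.24 for the replicate 2 pair. Without the block the standard error was 0.24 and limma gave adjusted p = 0.094, and with it the standard error was 0.15 and adjusted p = 0.0065. The probe set belongs to the platform's class whose probes can also bind other transcripts, and the other probe set of the gene read 1718 and 1149 in Atoh1-GFP cells, against 4530 and 3356 in dNeurog1-GFP cells, a difference of -1.45. Of 12 neural progenitor markers 7 were also lower with the block and 0 without it, 0 were listed at 0, and the list had summed signals of 45285 and 36739 in Atoh1-GFP cells, against 66563 and 48346 in dNeurog1-GFP cells. Their part in the Pcdh8 difference was not tested. In sorted cells measured in bulk, fewer cells of a type and less RNA per cell cannot be told apart.

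Pcdh17, which adheres to itself between neurons, read 120 and 60.6 in Atoh1-GFP cells, against 147 and 246 in dNeurog1-GFP cells. The groups did not overlap, but the difference of -0.91 came mostly from the replicate 2 pair (-1.58) and less from the replicate 1 pair (-0.23), and it did not pass (adjusted p = 0.68 with no block and 0.21 with the block). A further probe set of the gene gave -0.21 and -1.67 within replicates 1 and 2. Pcdh19, an X-linked gene mutated in a human epilepsy, read 570 and 644 in Atoh1-GFP cells, against 565 and 591 in dNeurog1-GFP cells. Its difference of 0.06 had a 95% confidence interval of -0.31 to 0.44 with the block. Pcdh18 read 808 and 661 in Atoh1-GFP cells, against 761 and 877 in dNeurog1-GFP cells, overlapping ranges, and a dimmer probe set read 265 and 274 in Atoh1-GFP cells, against 181 and 191 in dNeurog1-GFP cells. These 2 probe sets gave -0.15 and 0.47, so the gene has no settled direction. Pcdh10 was below the limit for testing on its 6 probe sets.

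The delta-1 protocadherins have a longer tail that binds protein phosphatase 1. Of 4 members 2 were tested and 0 passed with or without the block, with 0 of the 2 at an unadjusted p under 0.05. Pcdh9 read 183 and 46.7 in Atoh1-GFP cells, against 286 and 186 in dNeurog1-GFP cells. At this scaling its groups did not overlap, by a margin smaller than the spread within either group. They differed by -1.02, or -0.56 for the replicate 1 pair and -1.47 for the replicate 2 pair (limma adjusted p = 0.73 with no block and 0.11 with the block), and a further probe set gave -1.12. A dimmer probe set below the limit for testing gave 0.33, or 0.75 and -0.08 within replicates 1 and 2. Leaving out 1 array at a time without the block gave -1.74 without the Atoh1-GFP replicate 1 array (adjusted p = 0.044), -0.29 without the Atoh1-GFP replicate 2 array (0.92), -0.75 without the dNeurog1-GFP replicate 1 array (1) and -1.29 without the dNeurog1-GFP replicate 2 array (0.66). Pcdh7 read 68.6 and 35.8 in Atoh1-GFP cells, against 62.1 and 139 in dNeurog1-GFP cells. Its groups overlapped, with 0.10 within replicate 1 and -1.33 within replicate 2.

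Pcdh9 and Pcdh17 thus had the more negative of their differences in the replicate 2 pair, and Pcdh7 was negative in that pair only. The ventral neural tube markers summed to 1738 and 1240 over 12 genes in Atoh1-GFP cells, against 1345 and 4040 in dNeurog1-GFP cells, with 0 of them listed at 0. Medians over the 11 tested were 0.01 and -2.04 inside replicates 1 and 2. Of these 11 markers 7 differences were negative and 4 positive, among the latter Evx1 with 1.94. The part of the ventral markers in Pcdh9, Pcdh17 and Pcdh7 was not tested. Pcdh8 had its larger difference within replicate 1 on the brighter probe set (-1.74 and -1.24). On its other probe set the larger was within replicate 2 (-1.38 and -1.52).

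**Figure D2:**
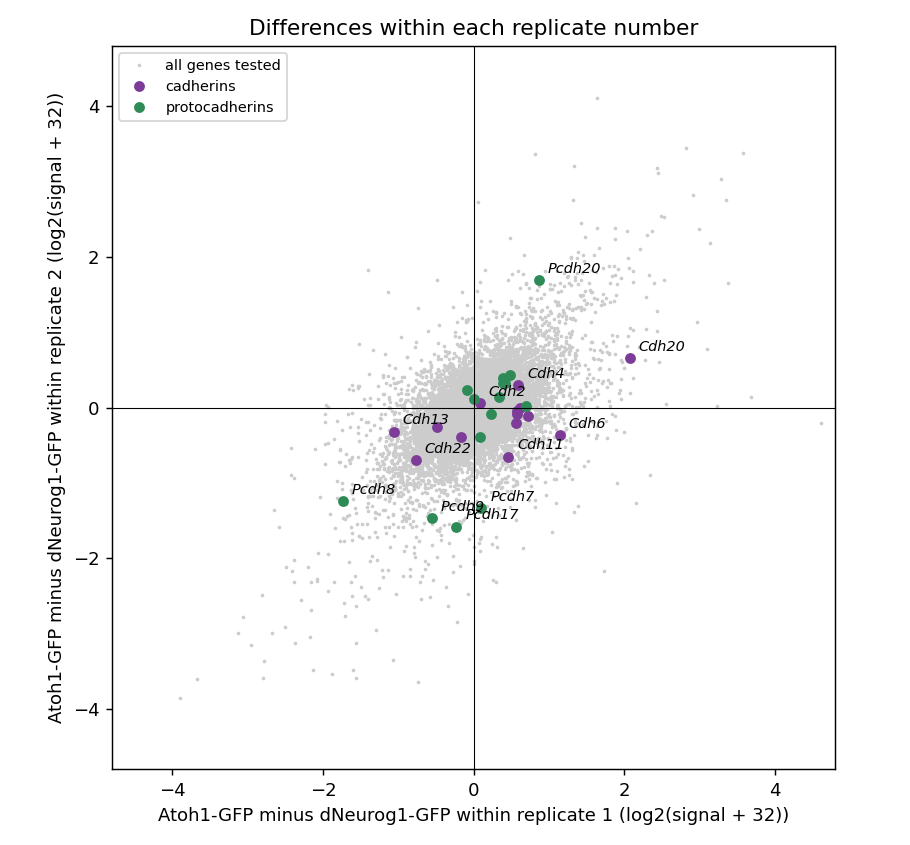
Difference in log2(signal + 32), Atoh1-GFP minus dNeurog1-GFP, within replicate 1 (horizontal) and within replicate 2 (vertical) for each gene tested, with all genes in grey, cadherins in purple and protocadherins in green. Pcdh8 lies low on both axes (-1.74 and -1.24), Pcdh20 high on both (0.86 and 1.69), and Cdh6 and Cdh11 are positive on the horizontal and negative on the vertical axis.

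Of the solitary protocadherins outside the delta groups, Pcdh20 was tested and passed with the block. It read 397 and 509 in Atoh1-GFP cells, against 204 and 135 in dNeurog1-GFP cells. Both Atoh1-GFP arrays lay above both dNeurog1-GFP arrays. The log2 difference was 1.28, made up of 0.86 for the replicate 1 pair and 1.69 for the replicate 2 pair. The standard error was 0.31 without the block, with limma adjusted p = 0.23, and 0.26 with it, with adjusted p = 0.042. Leaving out 1 array at a time without the block, it passed without either replicate 1 array (adjusted p = 0.037 without the Atoh1-GFP array and 0.048 without the dNeurog1-GFP array) and not without either replicate 2 array (0.35 and 0.55). A dimmer probe set below the limit for testing read 97.2 and 44.4 in Atoh1-GFP cells, against 3.32 and 6.95 in dNeurog1-GFP cells. Pcdh15, which forms the tip links of inner ear hair cells with Cdh23, was below the limit, with 77.7 and 56.0 in Atoh1-GFP cells, against 27.9 and 17.5 in dNeurog1-GFP cells. Pcdh12, known from endothelium, was also below it, and its groups overlapped at 27.7 and 50.4 in Atoh1-GFP cells, against 10.6 and 47.3 in dNeurog1-GFP cells.

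Pcdh8, Pcdh17, Pcdh20 and Pcdh9 lie in this order on chromosome 14, with 3 other protein-coding genes between Pcdh8 and Pcdh20 (RefSeq, GRCm38.p6). Pcdh20 and Pcdh9 are direct neighbours among protein-coding genes and differed in opposite directions, 1.28 and -1.02, although the Pcdh9 difference did not pass in either model.

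**Figure D3:**
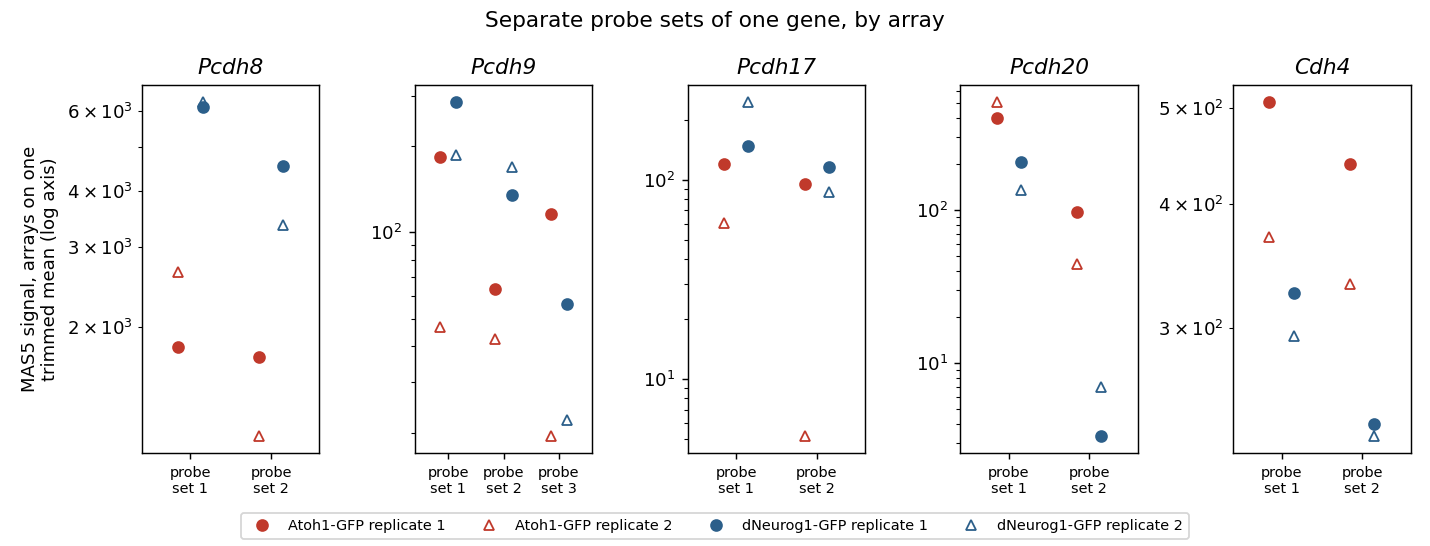
MAS5 signal (log axis, one scale per gene, arrays on one trimmed mean) on each probe set with a mean deposited signal of at least 20, for Pcdh8, Pcdh9, Pcdh17, Pcdh20 and Cdh4, with Atoh1-GFP arrays in red left of dNeurog1-GFP arrays in blue, circles for replicate 1 and triangles for replicate 2. The 2 Pcdh8 probe sets differ by -1.49 and -1.45 and the 2 Pcdh20 probe sets by 1.28 and 1.42.

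All 5 type I classical cadherins were tested, and 0 passed with or without the block (0 at an unadjusted p under 0.05 without it). Cdh2, N-cadherin, the main cadherin of the neuroepithelium, read 8138 and 7889 in Atoh1-GFP cells, against 7677 and 7552 in dNeurog1-GFP cells. The ranges did not overlap, but the difference was only 0.07, with a 95% confidence interval of -0.21 to 0.35 with the block. On a further Cdh2 probe set the ranges overlapped, at 3511 and 2975 in Atoh1-GFP cells, against 3001 and 2390 in dNeurog1-GFP cells. That probe set gave a difference of 0.27. Cdh4, R-cadherin, expressed in parts of the developing brain and spinal cord, read 507 and 370 in Atoh1-GFP cells, against 325 and 294 in dNeurog1-GFP cells. Its groups did not overlap on this probe set or on a further one, which read 439 and 332 in Atoh1-GFP cells, against 240 and 233 in dNeurog1-GFP cells. The differences were 0.45 and 0.63, and the gene did not pass (limma adjusted p = 0.83 with no block and 0.23 with the block).

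Cdh1, Cdh3 and Cdh15, the E-, P- and M-cadherins of epithelia and muscle, were dim and overlapped between the groups. Their differences were 0.57, 0.72 and 0.56 within replicate 1 and -0.04, -0.11 and -0.21 within replicate 2. The 2284 tested genes with mean deposited signals between 42.5 and 100 also lay on the positive side within replicate 1, with a median of 0.17 and 64.8% above 0, and had a median of -0.01 within replicate 2. The 15 members in that range had medians of 0.41 and -0.04, with 12 of the 15 above 0 within replicate 1 and 6 within replicate 2.

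Of the 11 type II classical cadherins, known from chick and mouse for sorting motor neurons into pools, 7 were tested and 0 passed with or without the block (0 at an unadjusted p under 0.05 without it). Cdh20 read 141 and 105 in Atoh1-GFP cells, against 9.07 and 54.8 in dNeurog1-GFP cells. The groups did not overlap, and they differed by 1.37, or 2.07 for the replicate 1 pair and 0.66 for the replicate 2 pair. The mean deposited signal was 87.7 in Atoh1-GFP cells and 29.7, under the limit for testing, in dNeurog1-GFP cells, so the gene was tested through its Atoh1-GFP arrays. The size of the difference depended on the pseudocount (1.90 with 10 and 0.77 with 100) and was 0.82 without the dNeurog1-GFP replicate 1 array. Its standard error was 0.58 without the block (limma adjusted p = 0.58) and 0.40 with it (adjusted p = 0.11). Cdh22 read 188 and 89.4 in Atoh1-GFP cells, against 343 and 165 in dNeurog1-GFP cells. Its groups overlapped at this scaling, which multiplied the replicate 1 arrays by 2 and the replicate 2 arrays by 1. The mean deposited signals were 91.7 in Atoh1-GFP cells and 168 in dNeurog1-GFP cells. Differences within the replicate numbers were -0.77 and -0.70 (limma adjusted p = 0.84 with no block and 0.12 with the block).

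Cdh7 read 132 and 99.7 in Atoh1-GFP cells, against 152 and 140 in dNeurog1-GFP cells, a difference of -0.28. Cdh10 read 87.4 and 117 in Atoh1-GFP cells, against 135 and 147 in dNeurog1-GFP cells, a difference of -0.37, while a further probe set gave 0.53. Neither passed, and Cdh10 has no settled direction.

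Cdh11, abundant in mesenchyme, read 2768 and 1719 in Atoh1-GFP cells, against 2000 and 2707 in dNeurog1-GFP cells. Cdh6, present in neural crest and kidney, read 879 and 465 in Atoh1-GFP cells, against 381 and 610 in dNeurog1-GFP cells. On these probe sets both genes were higher in Atoh1-GFP cells within replicate 1 (0.46 and 1.14) and lower within replicate 2 (-0.65 and -0.37). Within replicates 1 and 2, a further Cdh11 probe set gave 0.50 and -0.53. A further Cdh6 probe set gave 0.70 and 0.09, so Cdh6 was not lower within replicate 2 on both. The 11 mesenchyme and muscle markers summed to 7207 and 5294 in Atoh1-GFP cells, against 3556 and 8220 in dNeurog1-GFP cells, with medians of 0.71 and -0.39 within replicates 1 and 2 and 0 of the 11 listed at 0. Cdh5, VE-cadherin of endothelium, read 145 and 113 in Atoh1-GFP cells, against 86.1 and 123 in dNeurog1-GFP cells, and 10 endothelial markers, with 0 of the 8 tested called and 0 listed at 0, summed to 2743 and 1550 in Atoh1-GFP cells, against 1266 and 1355 in dNeurog1-GFP cells. The part of these cell types in the 3 genes was not tested.

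Of 5 other cadherins 2 were tested, and 0 passed with or without the block (0 at an unadjusted p under 0.05 without it). Cdh13, T-cadherin, which has a lipid anchor in place of a cytoplasmic tail, read 123 and 159 in Atoh1-GFP cells, against 290 and 206 in dNeurog1-GFP cells. The groups did not overlap, with differences of -1.06 within replicate 1 and -0.32 within replicate 2 (adjusted p = 0.69 with no block and 0.20 with the block). A dimmer probe set gave 0.02, so the probe sets disagree. Cdh23 read 106 and 47.3 in Atoh1-GFP cells, against 57.9 and 47.5 in dNeurog1-GFP cells, which overlap.

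The clustered protocadherins lie together on chromosome 18. The beta genes each have 1 coding exon and resemble each other closely, so their probe sets may share transcripts. Of 22 beta genes 7 were tested, and 0 passed with or without the block (0 at an unadjusted p under 0.05 without it). All 7 differences were positive, from 0.07 for Pcdhb16 and Pcdhb19 to 0.39 for Pcdhb3, and their median was 0.36 (replicate 1 pair 0.39, replicate 2 pair 0.23). Of all 12751 genes tested 6449 were positive, and of those with mean deposited signals between 42.5 and 100, 59.5% were. The 15 beta genes below the limit went both ways, from -0.54 for Pcdhb21 to 1.23 for Pcdhb8. After quantile normalization 5 of the 7 were positive and 2 negative. Pcdhb3 read 175 and 165 in Atoh1-GFP cells, against 126 and 118 in dNeurog1-GFP cells. Pcdhb7 read 85.1 and 78.1 in Atoh1-GFP cells, against 56.4 and 56.1 in dNeurog1-GFP cells, and Pcdhb22 read 73.0 and 80.7 in Atoh1-GFP cells, against 48.3 and 58.0 in dNeurog1-GFP cells.

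The groups did not overlap for these 3 genes, of which Pcdhb7 and Pcdhb22 were tested through their Atoh1-GFP arrays. The other 4 tested beta genes overlapped, among them Pcdhb17 with 184 and 239 in Atoh1-GFP cells, against 101 and 235 in dNeurog1-GFP cells. Pcdhgc4, a gamma-cluster gene, read 189 and 131 in Atoh1-GFP cells, against 126 and 89.5 in dNeurog1-GFP cells, and its difference of 0.45 did not pass (adjusted p = 0.96 with no block and 0.33 with the block). Dim genes of the whole array leaned the same way within replicate 1, as given above, and the part of this shift in the beta genes was not tested.

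The 27 members below the limit had signals between 0.818 and 157, and 15 of them were beta protocadherins. The groups overlapped for 19, and did not overlap for 5 that were higher and 3 that were lower in Atoh1-GFP cells. Of all 5442 genes below the limit the groups did not overlap for 19.9%, with 11.9% higher and 7.98% lower. Pcdhb8 read 157 and 58.5 in Atoh1-GFP cells, against 32.5 and 16.0 in dNeurog1-GFP cells, with differences of 1.55 and 0.92 within replicates 1 and 2. Pcdh15 had 0.87 and 0.83. When all genes were tested without a limit on low signals, the lowest adjusted p among these 27 was 0.79 without the block and 0.12 with it, both for Pcdhb8.

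Of 12 members with more than 1 probe set above the limit, the probe sets lay on the same side of 0 for 9. Cdh10, Cdh13 and Pcdh18 were the exceptions.

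Genes that work with cadherins also went both ways. Of 20 catenins and junction adaptors 16 were tested, and with the block 1 was higher and 1 lower in Atoh1-GFP cells, with 0 called without it and 3 at an unadjusted p under 0.05. The 2 calls are 12.5% of the list, beside 6.61% of all genes, and 8.65% of all genes had such an unadjusted p. Magi1, a scaffold of cell junctions, read 1765 and 2248 in Atoh1-GFP cells, against 799 and 618 in dNeurog1-GFP cells (1.46, limma adjusted p = 0.11 with no block and 0.013 with the block). Vcl, vinculin, which ties alpha-catenin to actin, read 2217 and 2822 in Atoh1-GFP cells, against 3269 and 4357 in dNeurog1-GFP cells (-0.59, adjusted p = 0.58 with no block and 0.036 with the block). The median of this list was -0.01. Beta-catenin, Ctnnb1, the partner of classical cadherin tails, read 15972 and 17459 in Atoh1-GFP cells, against 15730 and 14815 in dNeurog1-GFP cells, and its difference of 0.13 did not pass (adjusted p = 1 with no block and 0.62 with the block).

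Of 20 genes with cadherin repeats outside the Cdh and Pcdh names, 15 were tested, and with the block 1 was higher and 1 lower, with 0 called without it and 5 at an unadjusted p under 0.05. The calls are 13.3% of the list, again beside 6.61% of all genes with the block and 8.65% at the unadjusted p. Celsr3, a seven-pass cadherin needed for axon tracts in mouse, read 1952 and 2458 in Atoh1-GFP cells, against 916 and 1324 in dNeurog1-GFP cells (0.97, adjusted p = 0.30 with no block and 0.013 with the block). Ret, a receptor kinase with cadherin-like domains, read 74.7 and 84.9 in Atoh1-GFP cells, against 249 and 647 in dNeurog1-GFP cells (-1.97, adjusted p = 0.22 with no block and 0.024 with the block). The list median was 0. The neural crest and sensory neuron markers, 6 of 8 of them on the array and 0 at 0, summed to 2940 and 3539 in Atoh1-GFP cells, against 6214 and 10313 in dNeurog1-GFP cells. Of these 6 markers 2 differences were positive and 4 negative, the largest being those of Tfap2b (-3.06) and Isl1 (-2.34). Sox10 (0.81 and -1.32) and Erbb3 (1.09 and -0.95) changed sign between replicates 1 and 2. Foxd3 is also counted among the dI2 markers. Of the 11 ventral neural tube markers tested, 7 differences were negative and 4 positive. They ranged from -2.81 for Lhx4, -2.57 for Olig2 and -2.19 for Mnx1 to 1.94 for Evx1. The part of the neural crest and sensory neuron markers, or of the ventral markers, in the Ret difference was not tested.

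Of 22 genes for cadherin processing and protocadherin partners 18 were tested, and 1 passed with the block and 0 without it, with 1 at an unadjusted p under 0.05. That is 5.56% of the list, near the 6.61% of all genes with the block, and the unadjusted share over all genes was 8.65%. Cyfip2, of the actin-regulating complex that delta-2 protocadherins bind, read 1474 and 1884 in Atoh1-GFP cells, against 812 and 1189 in dNeurog1-GFP cells (0.74, adjusted p = 0.49 with no block and 0.028 with the block). The list median was 0.04. Of 12 neuronal markers 5 were higher and 1 lower with the block, 0 were called without it, 0 were listed at 0, and the list summed to 65712 and 67316 in Atoh1-GFP cells, against 44239 and 58331 in dNeurog1-GFP cells, and their part in the Celsr3, Magi1 and Cyfip2 differences was not tested.

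**Figure D4:**
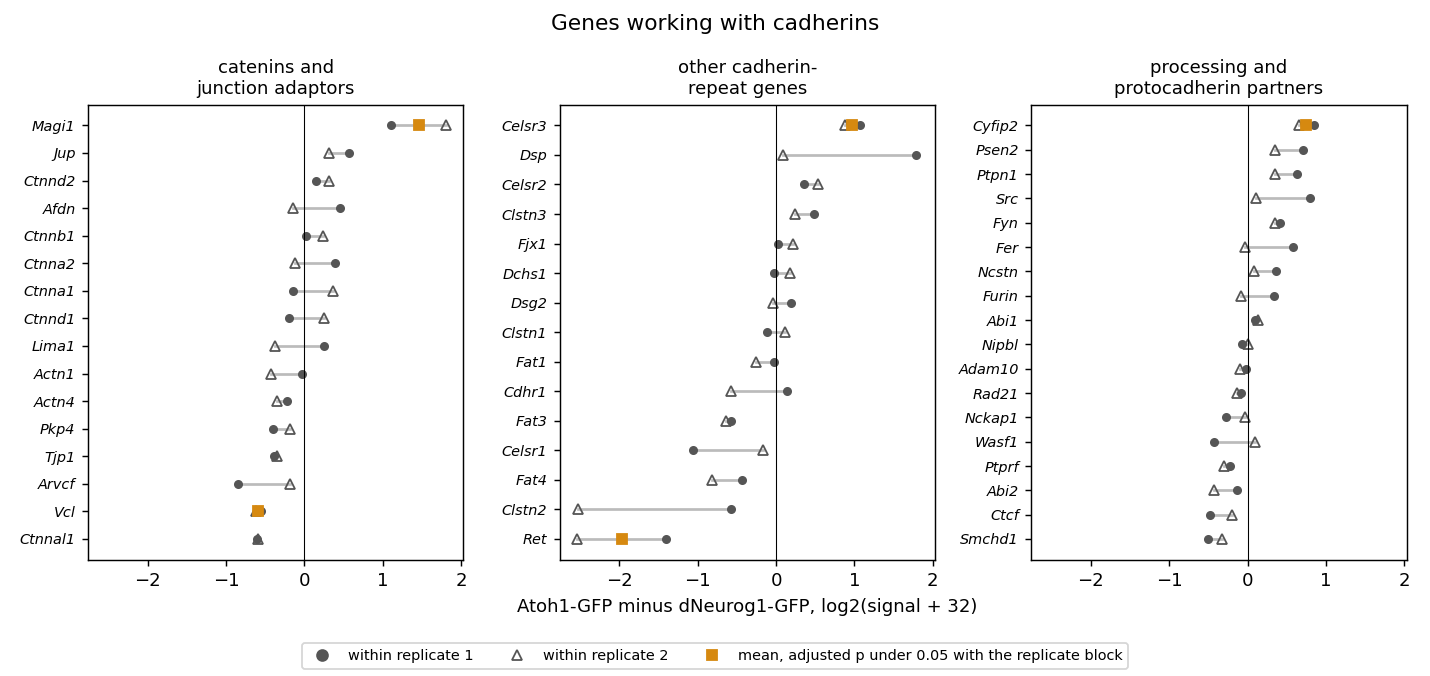
Difference in log2(signal + 32), Atoh1-GFP minus dNeurog1-GFP, for the tested genes of the 3 lists of cadherin partners, one row per gene, with circles for replicate 1, open triangles for replicate 2 and orange squares at the mean of the 5 genes called with the replicate block. Magi1, Celsr3 and Cyfip2 lie right of 0 and Vcl and Ret left of it in both replicate numbers.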

How the data were processed

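The authors deposited 1 linear intensity per probe set and array. MAS5 is the tool given in the submitters' processing notes, with version and target not given in the sources used here. Per the labels' protocols, RNA was prepared for Affymetrix arrays from GFP-sorted cells. Of 45101 probe sets, 64 controls were left out, and 34945 carry 1 gene symbol in the platform annotation.

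Arrays were multiplied to a trimmed mean of 500 (2% off each end). A gene was represented by its brightest probe set at or above the 40th percentile of mean deposited signal, which gave 12751 genes. limma 3.58.1 in R 4.3.3 (lmFit, eBayes with an intensity trend) was fitted to log2(signal + 32) over all genes, with Benjamini-Hochberg adjustment and a threshold of 0.05. The fit without a block leaves 2 residual degrees of freedom and that with the replicate number as a block 1, against median priors of 4.8 and 5.15, so p-values rest largely on the spread shared across genes. The block is printed beside each result because the deposited scaling differed by replicate number. Array number limits the precision, and the probes give no depth. The statistics were tested on simulated data, drawn without any effect of the replicate number.

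Named members are those called in either model, up to 8 of the largest differences in each direction with the same sign within both replicate numbers (8 higher and the 7 that were lower), and the 2 brightest tested genes of each subfamily. Members further named, such as those below the limit, were chosen after their values were seen. Members and lists were chosen with earlier results of these data known. Scaling, pseudocount, filter, probe set choice, trend, block and single arrays were varied in 15 alternatives. RefSeq tables of GRCm38.p6 gave chromosomes, gene order and promoter windows.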

Additional observations from a re-analysis of the deposited data

How the results depend on the processing

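The median member difference stayed between 0.03 and 0.26 (0.18 as reported) and the Pcdh8 and Pcdh20 differences kept their sign under all 15 alternatives, from -1.76 to -1.22 for Pcdh8 and from 1.03 to 1.53 for Pcdh20. With all 4 arrays and no block, Pcdh8 had adjusted p from 0.062 to 1 and Pcdh20 from 0.22 to 1, and 0 of the members passed. With the replicate block 2 members passed (Pcdh8 and Pcdh20), also with signals as deposited, where their adjusted p were 0.001 and 0.021. Over all genes 21 passed as reported, 843 with the replicate block, 1169 with the block and signals as deposited, 13 with deposited signals and no block, 36 with the filter at the 20th percentile and 0 without the intensity trend (1023 at an unadjusted p under 0.05). Leaving out 1 array, with the lone array of a group assumed to vary like the others, gave 151 to 369 genes and 1 to 3 members. Pcdh8 passed without each of the 4 arrays (adjusted p from 0.00025 to 0.022), Pcdh20 only without the Atoh1-GFP replicate 1 array (0.037) or the dNeurog1-GFP replicate 1 array (0.048), and Pcdh9 only without the Atoh1-GFP replicate 1 array. The cause of these changes was not tested.

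Nothing in the labels ties arrays of one number to a shared litter or day. After scaling, deviations of same-numbered arrays from their group means correlated at 0.64 across all genes tested and 0.16 across the 29 members, and genes are not independent replicates. No member call other than those of Pcdh8 and Pcdh20 changed with the block. Averaging all probe sets above the limit reversed Cdh10 to 0.08 and Pcdh18 to 0.16. Leaving out 1 array moved Cdh6 between -0.05 and 0.82, Cdh11 between -0.43 and 0.25, Cdh23 between -0.09 and 0.70 and Pcdhb17 between -0.14 and 0.87, none of which passed.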

Other observations

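Olfm4, a secreted glycoprotein gene that lies next to Pcdh8 among protein-coding genes on chromosome 14, was also lower in Atoh1-GFP cells. It read 22.7 and 27.5 in Atoh1-GFP cells, against 220 and 225 in dNeurog1-GFP cells, with differences of -2.20 and -2.11 within replicates 1 and 2 (limma adjusted p = 0.14 without the replicate block and 0.011 with it). Its mean deposited signal in Atoh1-GFP cells, 19.4, lay under the limit for testing, and that in dNeurog1-GFP cells was 167, so it was tested through its dNeurog1-GFP arrays. It was looked up after the Pcdh8 values were seen. The next genes, Pcdh17, Diaph3 and Tdrd3, had -0.91, -0.33 and -0.09 and did not pass.

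Probe sets annotated to several protocadherins were kept out of the member genes. There were 6, all of the alpha cluster and annotated to 9 or 14 genes each. The brightest read 441 and 611 in Atoh1-GFP cells, against 354 and 563 in dNeurog1-GFP cells, so the groups overlapped, with differences of 0.29 and 0.11 within replicates 1 and 2. Another read 164 and 104 in Atoh1-GFP cells, against 117 and 146 in dNeurog1-GFP cells, and the remaining 4 lay below the limit for testing.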
